A study of Mus musculus with 16 samples.

Results

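ND4 (mt-Nd4) is the mitochondrial gene for a subunit of respiratory complex I. All 4134 of its possible alleles, of 48897 in the mitochondrial genome, were followed in 16 libraries of sorted mouse bone cells. Each position gives 3 alleles, 1 for each base other than the reference. The gene was taken by its place, with no use of the measured values: 1378 positions of chromosome MT, 10167 to 11544 on the forward strand of GRCm38, of 16299 in all. In the names used here C10658T, for example, is a C read as T at 10658, and a protein change as the reference residue, the codon and the new residue. The allele fraction was the count of that base over the coverage of its position, in percent. An allele is called counted where a library had it at 1% or more and with no fewer than 5 counts.

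The mice were 3 months old and homozygous for PolG D257A, a change in the mitochondrial DNA polymerase that removes its proofreading, and every library carried it. No library of another genotype or age was among the samples, so no background from mice with a proofreading polymerase can be set beside the values. Cells from femurs were sorted by flow cytometry into 8 subsets, each with a replicate 1 and a replicate 2, labelled CD24, CD29, CD24_CD29, CD45, CD105, 6C3, Thy and Thy_6C3, and read by ATAC-seq, in which the Tn5 transposase cuts and tags accessible DNA. The labels give neither the gates, nor how many mice gave a library, nor what a replicate number stands for, so the spread that p-values measure is that of these libraries and may be technical. The tables analysed hold mitochondrial bases only, so the sorted markers could not be checked.

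Complex I takes electrons from NADH and pumps protons across the inner mitochondrial membrane. Its core membrane subunits, ND4 among them, are encoded by mitochondrial DNA and translated by mitochondrial ribosomes, while most other subunits come from nuclear genes. ND4 lies in the membrane arm and resembles bacterial antiporters. A cell holds many copies of mitochondrial DNA, so an allele can be present in a fraction of them, and a fraction in a library does not tell many cells with a few copies from a few cells with many.

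Thy replicate 2 stood apart from the other 15 libraries and is named beside each result it touches. It had 230 counted ND4 alleles, 203 of them A>C or T>G. Each other library had 7 to 33, and 0 to 2 of those kinds. Over the whole mitochondrial genome Thy replicate 2 had 2530 counted alleles, against 98 to 416 in the other 15 libraries. ND4 held 9.09% of those 2530, against a median of 7.53% and at most 9.41% in the others. The excess was thus not particular to ND4. Mean coverage of ND4 ran from 6944 counts per position in CD24_CD29 replicate 2 to 79741 in CD29 replicate 1, and the lowest coverage at any ND4 position in any library was 4615. Taken as 3 counts of the mean coverage, the most that a count of 0 allows was 0.0432% in CD24_CD29 replicate 2 and 0.00376% in CD29 replicate 1. Intervals for single libraries are exact (Clopper-Pearson) at 95%, and these and the limits cover counting error only, since reads carried no molecular identifiers.

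The alleles that carried the ND4 signal are shown in their reference sequence, each as 31 bases read 5′ to 3′ on the forward strand, with the changed base in capitals at the centre. The first set holds the alleles counted in all 8 libraries of replicate 1.
C10658T, chrMT:10643-10673: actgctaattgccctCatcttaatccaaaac
A11465G, chrMT:11450-11480: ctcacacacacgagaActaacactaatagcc
A10308G, chrMT:10293-10323: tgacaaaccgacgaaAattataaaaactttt
T10288C, chrMT:10273-10303: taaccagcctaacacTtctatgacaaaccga

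The next set holds the alleles counted in all 8 libraries of replicate 2.
C10210T, chrMT:10195-10225: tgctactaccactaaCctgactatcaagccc
T11438C, chrMT:11423-11453: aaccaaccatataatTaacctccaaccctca
T10913G, chrMT:10898-10928: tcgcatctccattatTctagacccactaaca
T11197C, chrMT:11182-11212: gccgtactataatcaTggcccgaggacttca
C11260T, chrMT:11245-11275: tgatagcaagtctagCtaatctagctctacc
A11529C, chrMT:11514-11544: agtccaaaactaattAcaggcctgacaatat

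The last set holds the ends of the frame and the 2 stop changes outside Thy replicate 2. In the first line the capitals mark the 7 bases, 10167 to 10173, that ND4 shares with ND4L, the gene before it. In the second the capital is the final T of ND4, which follows 459 full codons and is not a full stop codon in the DNA. Such ends are completed by the poly(A) tail of the messenger RNA.
ND4L-ND4 overlap, chrMT:10152-10188: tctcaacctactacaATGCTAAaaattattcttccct
ND4 end, chrMT:11514-11544: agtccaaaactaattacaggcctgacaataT
T10273A, chrMT:10258-10288: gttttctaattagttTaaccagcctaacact
C10296T, chrMT:10281-10311: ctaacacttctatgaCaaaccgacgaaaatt

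Most ND4 alleles were rare but not absent. None of the 4134 had 0 counts in all 16 libraries, and 4131 had at least 5 counts in some library. In the 15 libraries without Thy replicate 2, 593 alleles (14.3%) reached 0.5% in some library, 87 (2.105%) reached 1%, 19 reached 2%, 3 reached 5% and 1 reached 10%. With Thy replicate 2, 304 alleles (7.35%) reached 1%, and 217 of these did so there only. The 87 alleles lay along the whole gene, as the map of mean fractions along ND4 shows. Of them, 31 were counted in replicate 1 alone, 50 in replicate 2 alone and 6 in both.

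**Figure D1:**
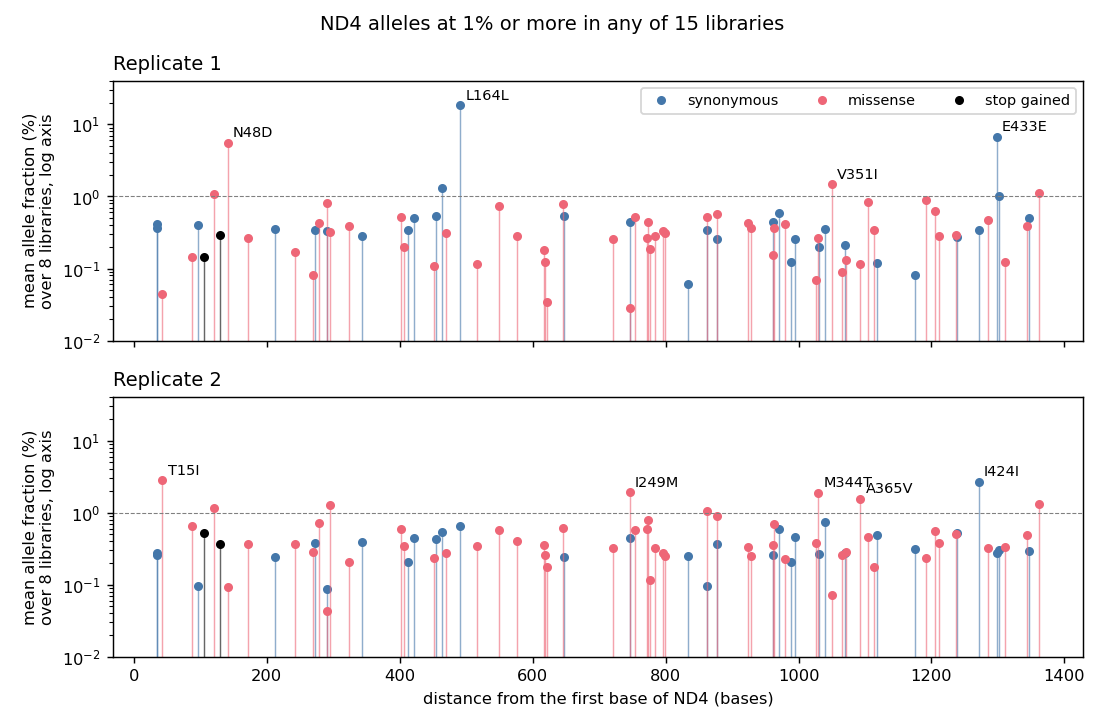
Mean allele fraction (percent, log axis) over the 8 libraries of replicate 1 (upper panel) and of replicate 2 (lower panel), against the distance in bases from the first base of ND4, for the 87 alleles at 1% or more in any library other than Thy replicate 2. Colours give the protein effect and the dashed line marks 1%; L164L stands at 18.5% in replicate 1 and at 0.650% in replicate 2.

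The highest allele of ND4 was C10658T, a silent change that keeps leucine at codon 164 (L164L). In replicate 1 it ran from 15.97% in 6C3 through a median of 18.8% to 21.7% in CD24_CD29, a mean of 18.5% ± 2.06 (SD, n = 8). In replicate 2 it ran from 0.375% to 1.02%, with a median of 0.583%. All 8 libraries of replicate 1 lay above all 8 of replicate 2, and Thy_6C3 was the only replicate 2 library where it was counted. The log2 difference, replicate 2 minus replicate 1, was -5.19 ± 0.32 (SE, adjusted p = 7.35e-08 with edgeR). By itself this allele made up 33.2% to 54.3% of the summed fraction of counted ND4 alleles in each replicate 1 library.

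A11465G and A10308G shared that pattern at lower levels. A11465G, a silent change at glutamate 433 (E433E), ran from 5.44% in Thy through a median of 6.80% to 8.66% in CD24_CD29 in replicate 1, and from 0.0193% to 0.581% in replicate 2. A10308G puts aspartate, which is acidic, in place of the neutral asparagine 48 (N48D). It ran from 4.89% in Thy through a median of 5.76% to 6.27% in CD24 in replicate 1, with an SD of 0.528 around a mean of 5.58%, and from 0.0276% to 0.235% in replicate 2. The log2 differences were -4.99 ± 0.45 for A11465G (adjusted p = 2.71e-06) and -6.27 ± 0.41 for A10308G (adjusted p = 1.37e-07), both with edgeR.

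A second silent change, A11468G (L434L), lies at the third base of the next codon after A11465G and is visible 3 bases past the capital in that sequence. It averaged 1.02% ± 0.389 (SD, n = 8) in replicate 1 and 0.307% ± 0.200 in replicate 2, and the numbers overlapped. In replicate 1 it ran from 0.450% in CD24_CD29, where A11465G was highest, to 1.499% in 6C3. Whether both changes sat on the same molecules cannot be read from tables of single positions.

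G11217A, which turns valine 351 into isoleucine, a residue much like it (V351I), ran from 0.860% through a median of 1.51% to 2.19% in replicate 1 and from 0.0134% to 0.231% in replicate 2. A10458G (M98V) ran from 0.278% to 1.35% in replicate 1 and from 0.00692% to 0.115% in replicate 2. Neither pair of ranges overlapped, and the log2 differences were -4.59 ± 0.40 (adjusted p = 1.64e-06) and -4.37 ± 0.42 (adjusted p = 5.46e-06) with edgeR. C10631T, a silent change at isoleucine 155 (I155I), averaged 1.32% ± 0.441 in replicate 1 and 0.546% ± 0.225 in replicate 2 (SD, n = 8 in each), but its ranges overlapped and it did not pass the test.

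Within ND4, replicate 2 had no allele near the level of C10658T. The highest there, C10210T, puts isoleucine, which is hydrophobic, in place of threonine 15 (T15I). It ran from 1.78% in 6C3 through a median of 2.75% to 4.47% in Thy_6C3, and from 0.00415% to 0.163% in replicate 1. T11438C, silent at isoleucine 424 (I424I), ran from 2.14% through 2.56% to 3.71%, again lowest in 6C3 and highest in Thy_6C3, against 0.160% to 0.600% in replicate 1. For both alleles every replicate 2 library lay above every replicate 1 library, but they were counted, and so entered the test, only through replicate 2. The log2 differences were 6.36 ± 0.53 for C10210T (adjusted p = 1.32e-06) and 3.04 ± 0.34 for T11438C (adjusted p = 2.44e-05) with edgeR.

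The others counted in all 8 libraries of replicate 2 change the protein. T10913G (I249M) is a T>G change, the kind that was common in Thy replicate 2, but it was counted in every library of that number. It ran from 1.24% in CD45 through 2.01% to 2.57% in CD29, and 6C3 (1.26%) and CD24_CD29 (1.40%) were also low. In replicate 1 it did not exceed 0.0433%, and the log2 difference was 6.13 ± 0.40 (adjusted p = 1.24e-07 with edgeR). T11197C (M344T) ran from 1.13% in CD24 through 1.997% to 3.03% in CD24_CD29 and was at most 0.552% in replicate 1. C11260T (A365V) ran from 1.01% in Thy through 1.49% to 2.36% in CD29 and was at most 0.277% in replicate 1. In CD24_CD29 replicate 1 it had 0 counts, which at 3 counts of that library's mean coverage allows up to 0.0214%. T10462C (L99P), which brings in proline, a residue that bends helices, was counted in 6 of 8 libraries of replicate 2 at a mean of 1.28% ± 0.392 (SD), against 0.320% ± 0.107 in replicate 1.

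**Figure D2:**
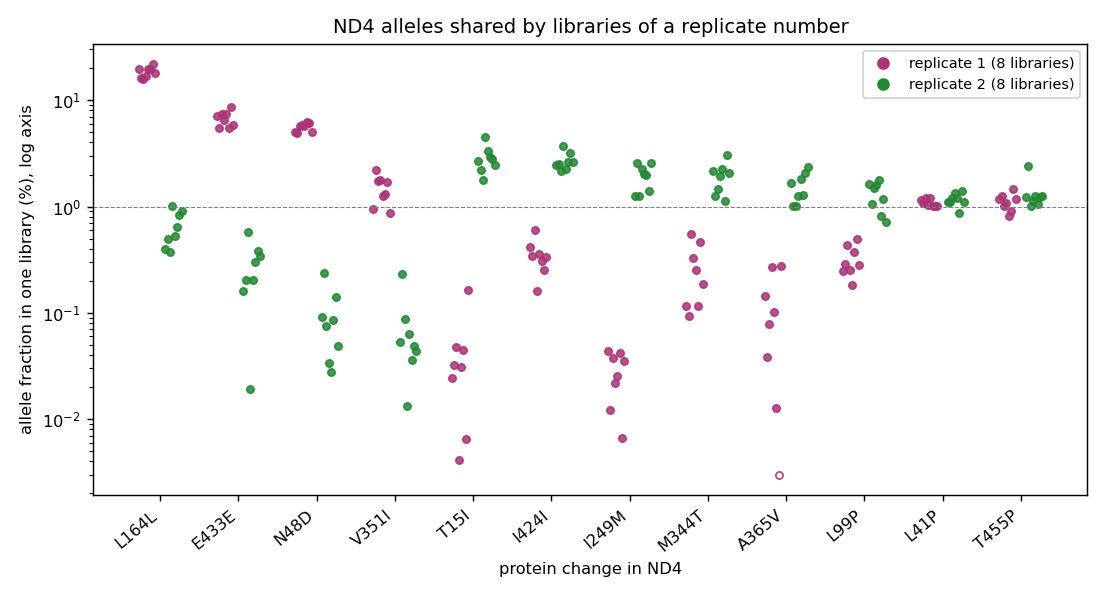
Fraction (percent, log axis) of 12 ND4 alleles, named by their protein change, in each of the 8 libraries of replicate 1 (purple) and of replicate 2 (green); the open mark at the lower edge is a count of 0 and the dashed line marks 1%. The 4 alleles at the left are higher in replicate 1, the next 6 are higher in replicate 2, and L41P and T455P lie near 1% in both.

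T10288C (L41P) and A11529C (T455P) differed from all of these, since they stood near 1% in both numbers. T10288C was at 1.004% to 1.21% in replicate 1 and at 0.866% to 1.41% in replicate 2. It was counted in 15 of 16 libraries, the exception being CD24 replicate 2. A11529C was at 0.822% to 1.45% in replicate 1 and at 1.02% to 2.41% in replicate 2, where the highest value was that of Thy replicate 2 and the next 1.26%. The others counted in both numbers were C10569T (R135W), T10622C (Y152Y), A11138T (S324S) and C10658T itself, which were counted in 1 or 2 libraries of at least 1 of the numbers. None of these apart from C10658T passed the test between replicate numbers.

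Over all alleles, the test between replicate numbers set replicate 2 against replicate 1 with a term for each subset, and p-values were adjusted by the Benjamini-Hochberg method over the 3487 alleles counted in any library. Of the genome's alleles 5.76% passed with edgeR (2.72% higher in replicate 1, 3.04% higher in replicate 2). In ND4 16 of 304 passed (5.26%), 7 higher in replicate 1 and 9 in replicate 2, a share near that of the genome. Among alleles that reached 2% in some library 10 of 28 passed (35.7%), against 29.9% of the genome's. The ranges of the 2 numbers did not overlap for 3.58% of the genome's alleles (1.78% with replicate 1 higher, 1.81% with replicate 2 higher) and for 12 of 304 in ND4 (3.95%, 5 with replicate 1 higher and 7 with replicate 2 higher), again a share near the background. All 12 were among the 16 called. Only C10658T among the 16 was counted in libraries of both numbers. The others entered the test through the number where they were higher, so their gaps and p-values are not independent of that filter. Of the 16 ND4 alleles, 10 change a residue, 5 are silent and 1 makes a stop codon, and 14 are transitions. Among the other complex I genes, the same test called 13 of 210 in ND1, 14 of 256 in ND2, 5 of 73 in ND3, 6 of 78 in ND4L, 26 of 421 in ND5 and 7 of 163 in ND6.

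The called allele that ends the protein was T10273A, which turns leucine 36 into a stop codon (L36*). It ran from 0.117% through 0.140% to 0.177% in replicate 1 and from 0.266% in CD45 through 0.465% to 1.16% (0.994 to 1.34) in Thy_6C3 in replicate 2. Every replicate 2 library lay above every replicate 1 library. The log2 difference was 1.74 ± 0.31 (SE, adjusted p = 0.0016 with edgeR). The alleles nearest to the threshold among those called were T10254C (Y30H, adjusted p = 0.00469 with edgeR), T11359C (I398T, 0.0137) and C11342T (T392T, 0.0393), and the ranges of all 3 overlapped. T11359C and C11342T did not pass a quasi-binomial model (0.129 and 0.115), nor edgeR without both Thy libraries (0.0540 and 0.0904). Leaving out single libraries, T11359C lost its call without Thy replicate 1 (adjusted p = 0.131 with edgeR) and without Thy replicate 2 (0.0542). C11342T was called in 7 of 15 such fits.

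The ND4 alleles were next compared between the sorted subsets. Across all subsets at once 0 of 304 ND4 alleles passed (0% of the genome's 3487) with edgeR, and 3 had an unadjusted p under 0.05. DESeq2 also called 0 in ND4 (0.516% of the genome's alleles), and so did the quasi-binomial model (0%). When each subset was set against the other 7, 0 alleles passed in any subset with edgeR (0% of the genome's alleles in each). At an unadjusted p under 0.05, Thy had 158, CD24_CD29 18, Thy_6C3 and CD29 5 each, 6C3 and CD24 2 each, and CD45 and CD105 0. Of the 304 ND4 alleles tested, 217 entered because they were counted in Thy replicate 2 only. The Thy counts given here, and those over all subsets without Thy replicate 1, thus give no independent evidence on Thy. The other models called more, in ND4 and in the genome alike. In Thy 190 ND4 alleles (62.5%) passed with DESeq2, against 58.1% of the genome's, and 213 (70.1%) with the quasi-binomial model, against 64.9%. In CD24_CD29 6 passed with DESeq2 (1.97%, against 2.04%) and 3 with the quasi-binomial model (0.987%, against 0.803%). In Thy_6C3 these were 2 (0.658%, against 0.258%) and 0 (0% of the genome's). The ND4 alleles tested fell from 304 to 290 when CD24_CD29 replicate 1 was left out, and to 283 when its replicate 2 was. Some alleles thus entered only through these libraries, and the CD24_CD29 counts given here are no independent evidence on CD24_CD29. With Thy replicate 1 left out, when Thy replicate 2 stood alone for its subset, edgeR called 216 of 301 for Thy (71.8%, against 69.2% of the genome's) and 15 for CD24 (4.98%, against 4.34%), and 215 over all subsets at once (71.4%, against 66.5%).

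A11237G, a silent change at threonine 357 (T357T), had the smallest p of a single-subset contrast. It was at 0.457% (0.346 to 0.594) and 1.07% (0.824 to 1.36) in CD24_CD29, against 0.105% to 0.269% in the other replicate 1 libraries and 0.106% to 0.295% in the other replicate 2 libraries. Both CD24_CD29 libraries were thus above all others. The allele was picked by its p, however, and entered the test only through CD24_CD29 replicate 2, so this gap is no independent evidence. The adjusted p was 0.210 with edgeR, 0.122 with the replicate number as a block, 0.0421 with the quasi-binomial model and 0.00305 with DESeq2.

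For the Thy contrast the smallest p was that of A11163C (N333H), at 0.276% and 1.30% in Thy and at most 0.242% elsewhere, with an adjusted p of 0.0985 with edgeR. It is an A>C change, and Thy replicate 2 had a mean of 78.2 per 10000 bases for A>C in ND4, against 8.35 to 13.6 in the other 15 libraries. C10789T (P208L) stood out in CD29, at 0.0969% (0.0752 to 0.123) and 1.12% (1.01 to 1.24), while the highest other value was 0.189% (adjusted p = 0.985 with edgeR). A11163C and C10789T were likewise picked by p and entered the test only through Thy replicate 2 and CD29 replicate 2. T10963C (L266P) was low in Thy_6C3, at 0.0399% in replicate 1 and at 0 counts in replicate 2, and at 0.0817% or more elsewhere. At 3 counts of the mean coverage of Thy_6C3 replicate 2, a count of 0 allows up to 0.0194%. The adjusted p was 0.935 with edgeR, 0.515 with the replicate number as a block, 0.9998 with the quasi-binomial model and 0.0147 with DESeq2. T10963C too was picked by its p, and it entered the test only through Thy replicate 1, so its gap is no independent evidence.

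Many ND4 alleles were counted in a single library of their replicate number. In replicate 1, 37 alleles were counted in some library, 4 in all 8 and 24 (64.9%) in 1 only, and the whole genome had the same share, 64.9%. In replicate 2 without Thy, 56 were counted, 6 in all 7 libraries and 45 (80.4%) in 1 only, against 76.5% over the genome. The heat map of the 87 alleles shows both kinds, bands that run over a replicate number and single bright cells.

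**Figure D3:**
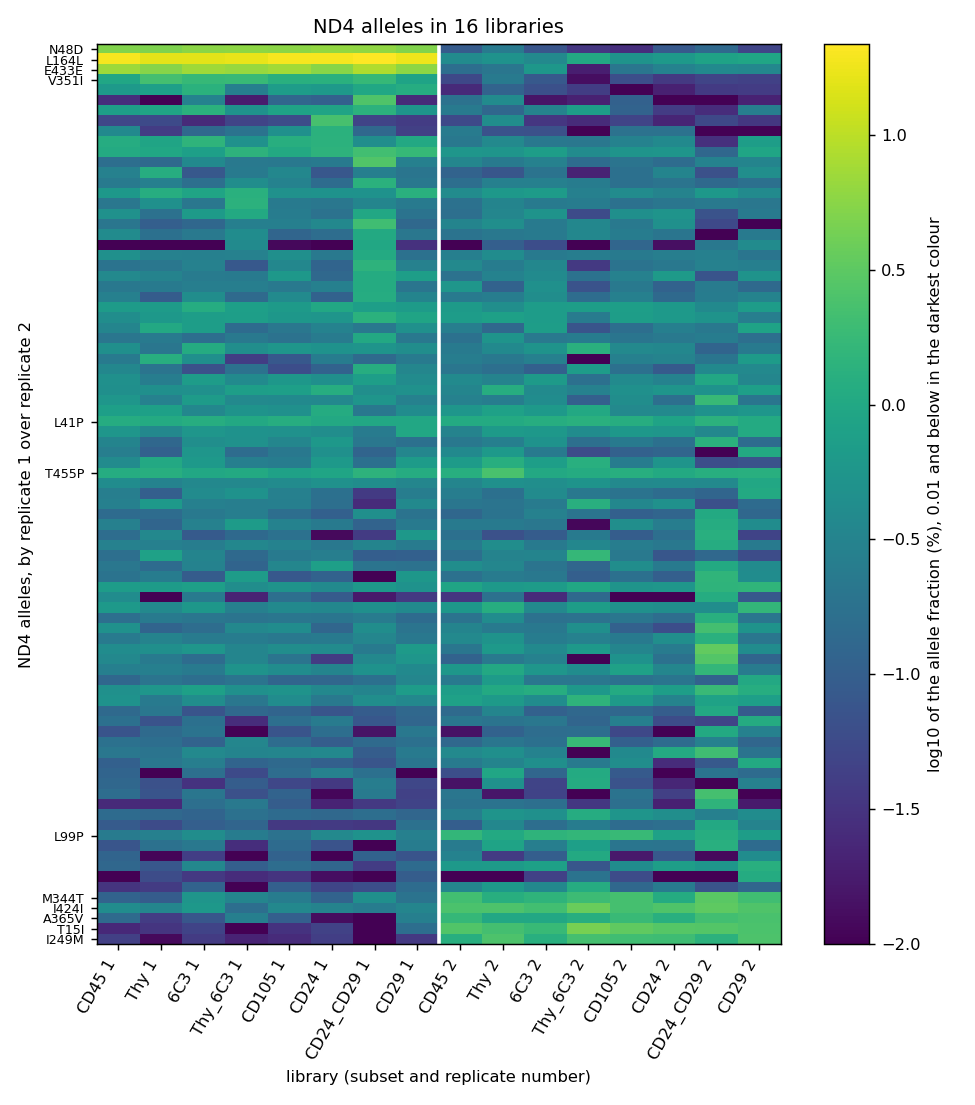
Fraction of the 87 ND4 alleles (rows, ordered by the ratio of the mean in replicate 1 to that in replicate 2) in the 16 libraries (columns, replicate 1 left of the white line and replicate 2 right of it), as log10 of the percent. Bands at the top run over the 8 replicate 1 libraries and bands at the bottom over the 8 replicate 2 libraries; most other bright cells lie in 1 column, often that of CD24_CD29.

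The libraries of CD24_CD29 held the most alleles of this second kind outside Thy replicate 2, 14 in replicate 1 and 21 in replicate 2. The highest were A10814G (L216L) at 2.68% (2.41 to 2.96) in replicate 1, with at most 0.384% in the others of that number, and T10941C (Y259H) at 3.45% (2.98 to 3.97) in replicate 2, with at most 0.643%. Thy_6C3 replicate 2 had 12, led by A10409T (Q81H) at 1.78% (1.58 to 1.99), and CD29 replicate 2 had 9, led by T10254C (Y30H) at 1.27% (1.16 to 1.38). CD24 replicate 1 had 4, of which A10457C (S97S) reached 2.32% (2.12 to 2.54) while the others of that number stayed at or under 0.0596%. Thy replicate 1 had 4, led by T10963C (L266P) at 1.22%, and 6C3 replicate 1 and Thy_6C3 replicate 1 had 1 each, T10622C (Y152Y, 1.14%) and C11147A (F327L, 1.39%). No such ND4 allele was counted in either library of CD45 or CD105, in CD29 replicate 1, 6C3 replicate 2 or CD24 replicate 2. In Thy replicate 2 there were 218, of which 201 were A>C or T>G, led by A11115C (I317L) at 2.60%.

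Some of these alleles fell in the same codon. Codon 413, a threonine, held C11404T (T413I) at 2.18% (1.82 to 2.57) and C11405T (T413T) at 2.74% (2.35 to 3.19), both counted in CD24_CD29 replicate 2 only and at most 0.565% elsewhere. The bases are neighbours, shown here with the codon in capitals, and a molecule with both changes would carry ATT, an isoleucine codon. C11404T alone also gives isoleucine. Codon 344 likewise held T11197C (M344T), described above, and G11198A (M344M) at 1.25% (0.992 to 1.56) in CD24_CD29 replicate 2. In codon 293, a histidine, the same library had A11044T (H293L) at 1.47% (1.22 to 1.77) and C11045T (H293H) at 1.51% (1.25 to 1.80), and A11044T was also counted in CD29 replicate 2 at 1.52%. Position 10913 held a second change besides T10913G, the silent T10913C (I249I), at 1.75% (1.47 to 2.07) in CD24_CD29 replicate 2. These were chosen after their values were seen, and the tables do not tell whether paired changes shared a molecule.
codon 413, chrMT:11391-11417: tacataattattACCacccaacgcggc
codon 344, chrMT:11184-11210: cgtactataatcATGgcccgaggactt

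The load of ND4, the mean over its positions of the summed non-reference fraction, includes sequencing errors and was 0.373% to 0.496% in 15 libraries and 1.13% in Thy replicate 2. By subset it was lowest in CD24, at 0.373% and 0.416%, followed by CD105 at 0.404% and 0.441%, and CD45 at 0.415% and 0.464%. Thy_6C3 had 0.447% and 0.466%, CD29 0.463% and 0.467%, 6C3 0.447% and 0.496%, and CD24_CD29 0.471% and 0.479%. Thy replicate 1 had 0.466%. No neighbours in this order were apart by more than their libraries. Subsets held 50.3% of the variance (one-sided exact permutation p = 0.192, or 0.384 adjusted for the 3 measures tested), and 70.7% without both Thy libraries (exact permutation p = 0.105). These tests do not use the replicate number. With the number as a block, its means removed and subsets exchanged within it, the share was 51.7% (exact permutation p = 0.258, 0.384 after adjustment). Without both Thy libraries the blocked share was 90.2% (exact permutation p = 0.0117, 0.0351 after adjustment), and CD24, CD105 and CD45 were the lowest 3, in that order, in both numbers. The load of the whole mitochondrial genome was also lowest in these 3, in the same order. It was 0.405%, 0.429% and 0.445% in replicate 1 and 0.385%, 0.409% and 0.418% in replicate 2. The order was thus not particular to ND4.

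The load of counted alleles alone, which leaves out the many low values, was 0.0474% and 0.0398% in CD24_CD29, above both libraries of every other subset but Thy. Thy_6C3 had 0.0279% and 0.0247%, and CD29 0.0263% and 0.0207%. In CD45, 6C3, CD105 and CD24 the libraries of replicate 1 had 0.0264% to 0.0316% and those of replicate 2 had 0.00876% to 0.0123%. Subsets held 48.2% of its variance (exact permutation p = 0.384, one-sided), and 49.0% with the replicate block (exact permutation p = 0.384). Without both Thy libraries the blocked share was 85.1% (exact permutation p = 0.116).

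The number of counted alleles was 23 and 33 in CD24_CD29. The other replicate 1 libraries had 7 to 12 and the other replicate 2 libraries without Thy 7 to 21. Over the whole genome CD24_CD29 had 280 and 416, also the most outside Thy replicate 2. ND4 held 8.21% and 7.93% of these, against a median of 7.53% over the 15 libraries. The high number was thus not particular to ND4. CD24_CD29 also had the lowest coverage, with means of 14012 and 6944 counts, whose part in the number was not tested. With only alleles whose lower 95% bound was at 1% or more, its numbers were 14 and 21, against at most 10 and 14 in those libraries. Subsets held 46.2% of the variance of the number (exact permutation p = 0.296, one-sided, 0.384 after adjustment) and 77.7% without both Thy libraries (exact permutation p = 0.0465, 0.140 after adjustment). With the replicate block these shares were 50.5% (exact permutation p = 0.186) and 83.1% (exact permutation p = 0.0683, 0.102 after adjustment).

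**Figure D4:**
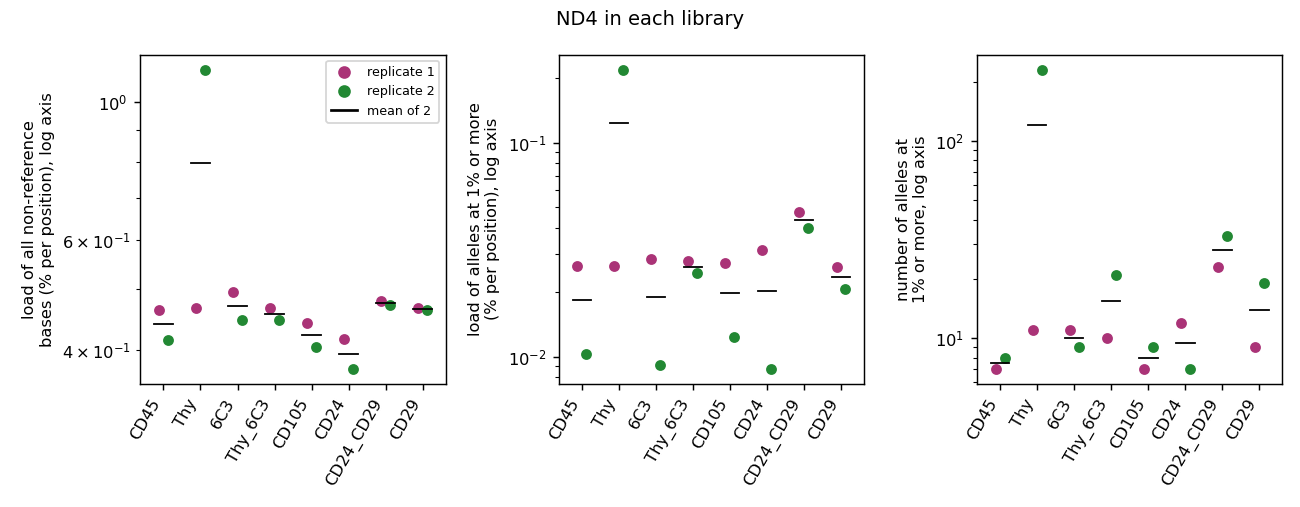
Load of all non-reference bases in ND4, load of alleles at 1% or more (both percent per position) and number of alleles at 1% or more, each on a log axis, for the replicate 1 (purple) and replicate 2 (green) library of each subset; the black line is their mean. Thy replicate 2 is the highest point of each panel, and CD24_CD29 is next in the number of alleles with 33 and 23.

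Between replicate numbers neither the loads nor the number passed the test with all 16 libraries. For both loads the Thy pair outweighed the other 7 pairs, all of the opposite sign. These 2 tests therefore cannot tell whether the other subsets differed between the numbers. The mean difference, replicate 1 minus replicate 2, was -0.0561 percentage points for the load (exact permutation p = 1, two-sided), -0.0129 for the load of counted alleles (exact permutation p = 1) and -30.8 alleles for the number (exact permutation p = 0.0938, 0.281 after adjustment). Thy replicate 2 set the sign of the first 2 and most of the size of the last, which was -3.86 alleles without the Thy pair (exact permutation p = 0.188) and -4.50 without A>C and T>G changes (exact permutation p = 0.188). Without the Thy pair the differences in load were 0.0301 and 0.0128 percentage points, higher in replicate 1 in 7 of 7 subsets for both, with an exact permutation p of 0.0156 (0.0234 after adjustment), the smallest that 7 pairs allow. With all libraries but without A>C and T>G changes, the load of counted alleles was higher in replicate 1 in 8 of 8 subsets. The difference was 0.0125 percentage points (exact permutation p = 0.00781, the smallest that 8 pairs allow, 0.0234 after adjustment). These gaps in counted load included C10658T, at a mean of 18.5% in replicate 1 and 0.650% in replicate 2. Without that allele, the summed fraction of counted ND4 alleles averaged 23.2% ± 8.64 (SD, n = 8) in replicate 1. In replicate 2 without Thy it averaged 24.6% ± 15.7 (SD, n = 7), and the subsets differed in direction. The higher counted load in replicate 1 was thus not seen for the other counted alleles, though this was not tested.

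The protein effects of the 87 alleles counted outside Thy replicate 2 were 54 missense (62.1%), 31 synonymous (35.6%) and 2 stop codons (2.30%). Of all 4134 possible alleles, 70.8% are missense, 23.2% synonymous and 5.68% stop codons. In the other 12 protein genes the counted alleles were 65.1% missense, 30.6% synonymous and 3.68% stop codons. Among the transitions of ND4 (A>G, G>A, C>T and T>C), the counted share was alike for silent and missense changes. It was 25 of 523 synonymous (4.78%), 38 of 802 missense (4.74%) and 1 of 49 stop changes (2.04%). No test was run on these shares, since alleles on the same molecule are not independent. Both stop alleles were counted in Thy_6C3 replicate 2 only, T10273A as above and C10296T (Q44*) at 1.26% (1.09 to 1.44). Thy replicate 2 had 18 stop alleles and, in the start codon, A10167C at 2.11% and T10168G at 1.22%.

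In the 7 bases shared with ND4L a change alters 2 reading frames. No allele there was counted outside Thy replicate 2, where A10167C, T10168G and A10172C were counted, and the highest fraction in the other 15 libraries was 0.583%, for C10170A (L2M in ND4, C98W in ND4L).

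The kinds of change differed in frequency. Outside Thy replicate 2, C>T was counted at 27 of 356 C positions (7.58%, against 6.05% in the rest of the genome), T>C at 20 of 407 T positions (4.91%, against 5.87%), A>G at 14 of 480 A positions (2.92%, against 3.75%), A>T at 14 (2.92%, against 2.47%) and G>A at 3 of 135 G positions (2.22%, against 3.19%). G is the rarest base of the strand shown, at 9.80% of ND4 and 12.4% of the genome. By the following base, C>T was counted at 14 of 120 C positions before an A (11.7%) and at 4 of 118 before a T (3.39%). These counts are descriptions, with no test.

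The pattern of ND4 was set beside that of the other 12 mitochondrial protein genes. In replicate 1 its load of counted alleles was 0.0303% ± 0.00714 (SD, n = 8), below ATP8 (0.0633%) and ATP6 (0.0337%), subunits of ATP synthase, and above the other complex I genes, of which ND2 (0.0263%) and ND4L (0.0259%) came next. In replicate 2 without Thy it was 0.0180% ± 0.0114 (SD, n = 7), in place 8, while ND6 (0.0324%) and ND5 (0.0300%) led among complex I genes. ND4 gave 10.9% to 14.1% of the genome's load of counted alleles in the libraries of replicate 1. In those of replicate 2 it gave 3.96% to 7.44%, other than Thy, which had 8.59%. In replicate 1, C10658T alone made up 33.2% to 54.3% of the ND4 sum in each library. The genes were not compared without their highest alleles. In the number of counted alleles per 1000 positions, 63.1 over the 15 libraries, ND4 was in place 9. The order of the genes was not tested.

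**Figure D5:**
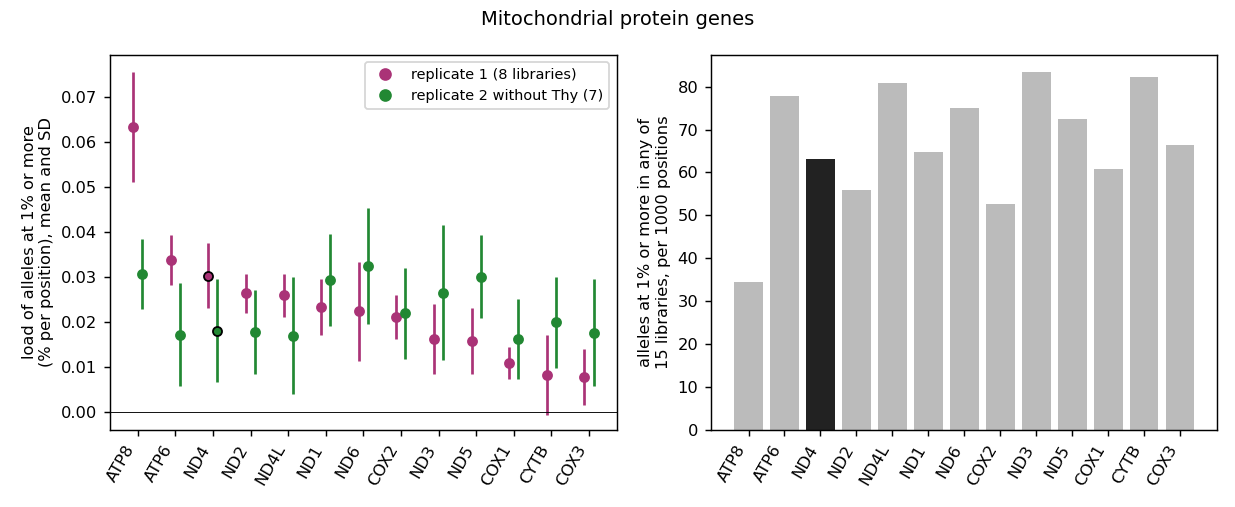
Left, load of alleles at 1% or more (percent per position) in each mitochondrial protein gene, as the mean and SD over the 8 libraries of replicate 1 (purple) and over the 7 of replicate 2 without Thy (green), with ND4 ringed in black. Right, alleles at 1% or more in any of the 15 libraries other than Thy replicate 2, per 1000 positions, with ND4 in black at 63.1.

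Across the 16 libraries the load of counted alleles of ND4 ran most like that of ATP6 and ND2 (Pearson's r = 0.994 for both) and ND4L (0.993), and its number of counted alleles most like that of ND5 (0.999), COX1 (0.998) and ND2 (0.998). These values share the high point of Thy replicate 2, and over the other 15 libraries the r of the load was 0.892 with ATP6, 0.940 with ND2 and 0.835 with ND4L, while that of the number was 0.958 with COX1, 0.938 with ND5 and 0.933 with ND2. The 15 libraries still carry the gap between the replicate numbers. Within the 8 libraries of replicate 1 the order of the load was another, with ND3 (0.958), CYTB (0.958) and COX2 (0.952) first, ND2 at 0.813 and ATP6 at 0.534, in place 11 of 12. Of 3183 counted alleles outside ND4, those whose fractions ran most like C10658T were G3079A (S110N in ND1, r = 0.997), C4493T (L194F in ND2, 0.988) and C4216T (A101A in ND2, 0.987). Those most like C10210T were C3085T (S112L in ND1, 0.977), T13093A (M451K in ND5, 0.976) and T5209C in TrnC (0.970), the cysteine transfer RNA gene. These r, on arcsine square root fractions, mostly carry the gap between the replicate numbers. Within the 8 libraries of replicate 1 the r of C10658T was 0.836 with G3079A, 0.656 with C4493T and 0.170 with C4216T. Within the 8 of replicate 2 the r of C10210T was 0.526 with C3085T, 0.391 with T13093A and 0.746 with T5209C.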

How the data were processed

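Bulk ATAC-seq of 16 libraries gave 2 deposited tables. They hold raw counts, which the authors left unscaled: coverage per mitochondrial position, and non-reference bases per position by base, in every library. Per the labels' protocols, libraries were read on a NovaSeq6000 as paired ends of 100 bp. Per the submitters' processing notes, the tools were BWA 0.7.17, cutadapt 2.10 and bcl2fastq 2.20, and the builds mm10 and GRCm38. Quality filters, duplicate removal and how reads from nuclear copies were handled, each of which can move a low fraction, are steps not given in the sources used here. Every column of values was matched to a sample by its title, and 0 of 120 pairs of libraries were identical.

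Gene bounds came from RefSeq on GRCm38.p6, protein changes from the vertebrate mitochondrial code (Biopython 1.88), and reference bases from the deposited tables. Per allele, edgeR 4.0.16 (R 4.3.3, quasi-likelihood test, threshold 0.05) was fitted with 2 columns per library, its reference and its non-reference count, a term for every library and subset terms, over all alleles counted in any library. The comparison of replicate numbers kept the subset terms. DESeq2 1.42.0 and a quasi-binomial model were alternatives, with other thresholds, gene bounds, the replicate block and each library left out. Loads and numbers were tested with exact permutation tests, between subsets over all 2027025 ways to pair 16 libraries and between replicate numbers over all 256 swaps within subsets, adjusted over 3 measures by the Benjamini-Hochberg method. A blocked form of the first, added after the data were seen, removed the means of each replicate number and exchanged subsets within it in all 40320 orders. Scripts were tested on simulated data. The other software was pandas 2.3.3, scipy 1.17.1, numpy 2.4.6 and matplotlib 3.10.9 under Python 3.11.15.

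No label says what a replicate number marks. Deviations of same-numbered libraries from their subset means correlated in 28 of 28 pairs of subsets (r from 0.343 to 0.863 over 3487 alleles), so the numbers were taken to pair the libraries, from the data and not the design. Members, lists and rules were chosen with earlier results of these data known. The alleles named were the 8 with the highest mean in each replicate number and those counted in all libraries of a number. Named too were the highest counted in 1 library only, per library, and stop and start changes counted outside Thy replicate 2. The last were those counted in the overlap with ND4L, and the allele with the smallest p of each comparison. For CD45 this was A11253C (S363R), for 6C3 and CD105 C10636T (S157F), and for CD24 C11404T (T413I). Their adjusted p-values were 0.978 or more with edgeR. All 16 alleles called between replicate numbers are also counted, and those named beyond the rule were chosen after their values were seen.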

Additional observations from a re-analysis of the deposited data

Results flagged for a closer look

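In 16 groups of 8 values, a single library lay far from the others of its replicate number 6 times, by a criterion that chance meets in about 1 of 20 groups. In replicate 1, CD24_CD29 had a load of counted ND4 alleles of 0.0474%, against 0.0316% in the next library, and 23 counted alleles, against 12. In replicate 2, Thy had a load of 1.13% against 0.471% in the next, a load of counted alleles of 0.219% against 0.0398%, and 230 counted alleles against 33. A11529C (T455P) was at 2.41% in Thy replicate 2 and at 1.26% in the next library of that number. CD24_CD29 replicate 1 and Thy replicate 2 also had the most counted alleles of their number over the whole genome, 280 and 2530. What set these libraries apart was not tested.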

How the results depend on the processing

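Of the results with all 16 libraries, the differences between replicate numbers in load turned sign. The load difference, -0.0561 percentage points, became 0.0301 without both Thy libraries and without either of them. The load of counted alleles, -0.0129, became 0.0128 in those settings, 0.0125 without A>C and T>G changes and 0.0146 at a threshold of 2%. All of these values include C10658T, the highest ND4 allele of replicate 1. Thy replicate 2 is the library with the A>C and T>G excess. Without Thy replicate 1, the share of variance between subsets rose to 99.0% (load), 98.0% (load of counted alleles) and 99.6% (number), with exact permutation p-values adjusted to 0.0105, 0.0214 and 0.00931, since the lone Thy replicate 2 adds no spread within its subset. Over single libraries left out, these shares ran from 48.8% to 99.0%, 47.5% to 98.0% and 45.7% to 99.6%, the differences from -0.0712 to 0.0301, -0.0180 to 0.0128 and -35.9 to -3.86 alleles.

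Alleles called between subsets went from 0 to 215 without Thy replicate 1 (71.4% of those tested, against 66.5% over the genome) and stayed at 0 without any other single library. In single-subset contrasts the total of 0 became 198 with DESeq2 (8.14% of the tests, against 7.55% over the genome), 216 with the quasi-binomial model (8.88%, against 8.21%) and 231 without Thy replicate 1 (9.59%, against 9.20%). Of the 304 ND4 alleles, 217 entered the tests through Thy replicate 2 only, so these added calls give no independent evidence on Thy. Others entered through a CD24_CD29 library only, so the same holds for the calls of CD24_CD29. Between replicate numbers, 16 calls became 10 with a 2% filter, which tested 28 alleles (35.7% called, against 29.9% over the genome). With the replicate block, 0 ND4 alleles were called between subsets and 0 in the single-subset contrasts, as without it. For the loads and the number the block was added after the data were seen. With it and without both Thy libraries, the share of the load's variance between subsets was 90.2% and passed (exact permutation p adjusted to 0.0351), and no other call between subsets changed under the block. Of the 16 alleles called, 16 passed with DESeq2, 14 with the quasi-binomial model, 14 without both Thy libraries, 12 with no fraction filter and 12 in all 16 fits that left out a library. T10273A and T10254C were tested in 15 of those fits and called in all 15. T11359C was called in 14 of 16 and C11342T in 7 of 15. With the stricter count, added after the data were seen, in which the lower 95% bound had to reach 1%, no result changed direction or call. Depth limits the low end, since a count of 0 in the shallowest library allows up to 0.0432% at its mean coverage and 0.0650% at its lowest.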
